A study of Homo sapiens with 8 samples.

Results

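The mitochondrial carriers of solute carrier family 25 (SLC25) were examined in EndoC-βH5 cells. This established beta-cell line is human, was derived from fetal pancreas and has had its immortalizing transgenes removed. The members are the protein-coding genes of the deposited table whose symbol begins with SLC25A, plus UCP2, a carrier of the same family with a name of its own. They number 42 (41 SLC25A genes and UCP2) of the 16525 genes listed. RNA of 4 control cultures, left untreated, and of 4 cultures exposed for 48 h to a mixture of IL-1β (50 U/mL) with IFNγ and TNFα (each at 1000 U/mL) was sequenced. All cultures come from a single line, so they share 1 genetic source. Nothing in the labels says that the 4 libraries of a condition came from separate passages or days, and p-values therefore measure only the spread between these libraries, which may be technical. SLC25A2, SLC25A18, SLC25A21, SLC25A31, SLC25A47, SLC25A48, SLC25A52 and UCP1 were not analysed here.

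SLC25 carriers sit, with few exceptions, in the inner mitochondrial membrane and exchange metabolites between the matrix and the cytosol. Each is built from repeated pairs of membrane-spanning helices and works by alternately opening to either side. In beta cells, the carriers of citrate, malate, aspartate and glutamate take part in the shuttles that couple glucose metabolism to insulin secretion, and UCP2 is known for lowering the ATP yield of that metabolism.

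Values are library-scaled read counts (CPM, reads per 1e6 reads of the library), as the authors deposited them, and 1 read equals 0.0196 to 0.0214 CPM. Between 36577438 and 40117636 reads per library fell on listed genes, and a count of 0 would allow up to 3 reads, which is 0.0587 to 0.0641 CPM and covers counting error only. Each control column shares the start of its name with a single cytokine column. These pairs are called A, B, C and D, and values below are given in that order. A and B share the end of their column names, as do C and D. Mitochondrially encoded genes held 147719.7, 145873, 58991 and 84618 CPM in control libraries and 108320.2, 108892, 41518 and 61301 CPM in cytokine libraries. They were thus lower in every cytokine library than in its control, and lower in C and D than in A and B. All 8 beta-cell markers were listed (summed level 3460 to 5208 CPM in control and 3218 to 3956 CPM in cytokine libraries). PDX1, MAFA, NKX2-2, SLC30A8 and ABCC8 fell, while INS (log2 fold change -0.17), NKX6-1 (0.39) and PCSK1 (0.42) were not called. Of the 10 listed markers of other cell types, IRX2 (alpha cells) rose (log2 fold change 0.91, adjusted p = 0.00166) and CPA1 (acinar cells) fell (-1.06, adjusted p = 0.00201, limma), and the other 8 were not called. SST, the delta-cell hormone, ranged from 355 to 2143 CPM in control libraries. None of the 3 endothelial and 3 immune markers was listed. The part of these shifts in the results for the carriers was not tested.

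Cytokine exposure changed 11 of the 42 carriers, of which 3 rose and 8 fell. Calls required a log2 fold change beyond 0.5 in either direction and an adjusted p below 0.05, by limma on log2(CPM + 0.1) with Benjamini-Hochberg adjustment over all 16525 genes. SLC25A25, SLC25A28 and SLC25A22 rose, and SLC25A29, SLC25A34, UCP2, SLC25A10, SLC25A40, SLC25A35, SLC25A3 and SLC25A14 fell. The called share was 26.2% of the carriers, against 27.0% of all genes. Upwards it was 7.14% against 9.52%, and downwards 19.05% against 17.5%. The carriers as a family were therefore called about as often as any listed gene, and the results concern single members. All 42 were tested, and none was below 0.5 CPM in more than 4 of the 8 libraries. In bulk RNA, fewer cells that express a gene and less RNA per cell cannot be told apart.

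In 12 carriers (28.6%) the 4 control libraries did not overlap with the 4 cytokine libraries, against 32.8% of all genes. Of these 10 were lower with cytokines (23.8%, against 21.9%) and 2 higher (4.76%, against 10.8%), and 9 were among the 11 called. The median log2 fold change was -0.21 over the carriers and -0.17 over all genes. With TMM scaling the medians were -0.06 and -0.02, since TMM moved the median gene up by 0.15. Under TMM 3 carriers rose and 5 fell (background 24.7% in all, 13.0% higher and 11.7% lower), because SLC25A35, SLC25A3 and SLC25A14 no longer passed. With the pairs as a replicate block, limma called 3 higher and 10 lower (background 35.4% in all, 11.6% higher and 23.8% lower). The edgeR quasi-likelihood test on the recovered reads, with TMM, called 3 higher and 5 lower (background 24.6% in all, 13.0% higher and 11.6% lower), and with the block 4 higher and 8 lower (32.1%, 15.8% and 16.3%). With CPM taken over nuclear genes alone, limma called 2 higher and 12 lower (background 29.2% in all, 8.67% higher and 20.5% lower): SLC25A22 no longer passed, and SLC25A1, SLC25A11, SLC25A12 and SLC25A23 did. All 11 called carriers moved in the same direction in each of the 4 pairs, as did 15 of the 31 that were not called (26 of 42 in all). The calls were made on these same libraries, so the agreement between pairs is no separate support for them. A difference in response between A and B on the one hand and C and D on the other was also tested. None of the 42 carriers passed (lowest adjusted p = 0.999, limma interaction), and among all 16525 genes 5 passed. With 2 pairs on each side, this test cannot show that the responses were the same.

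**Figure D1:**
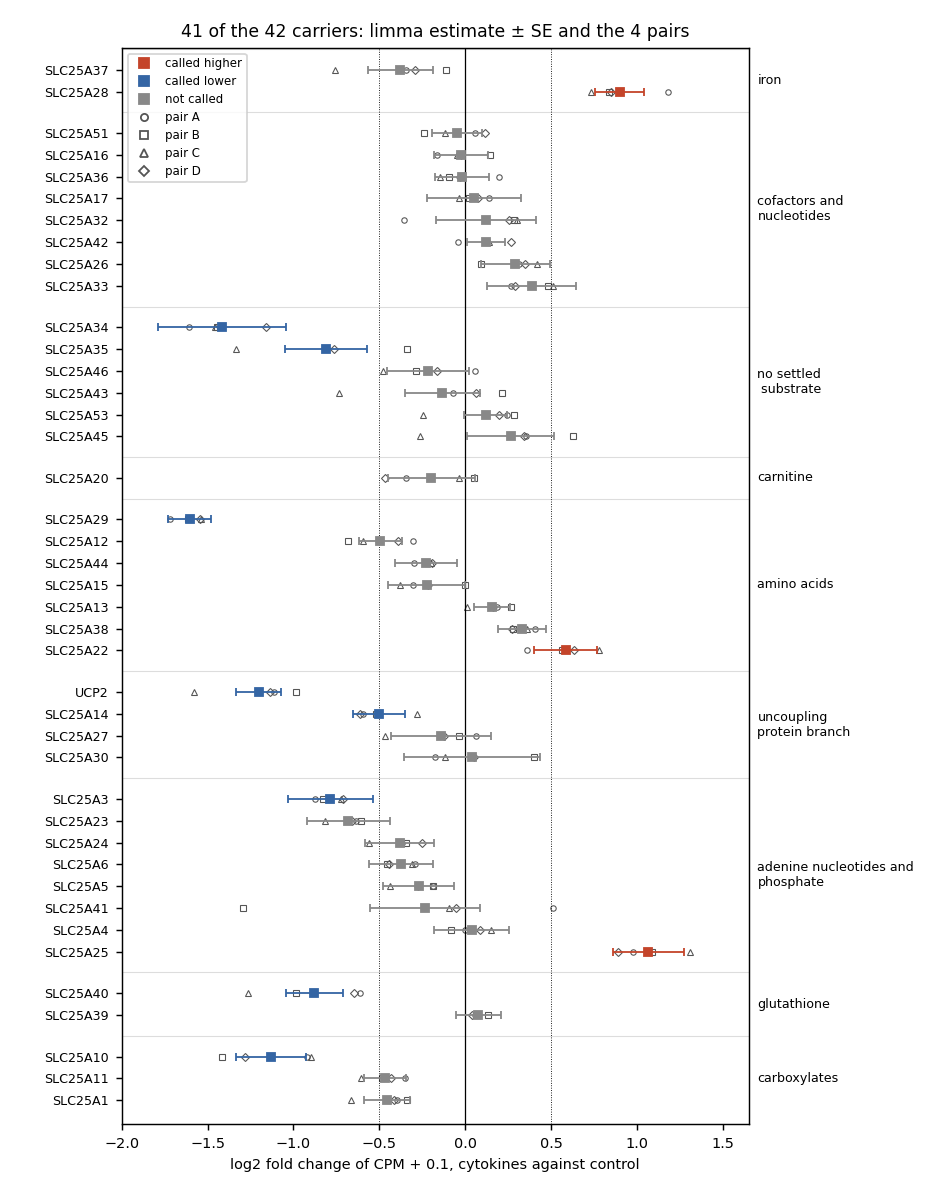
Log2 fold change of CPM + 0.1 (horizontal axis) for 41 of the 42 carriers, grouped by role. Squares with bars are the limma estimate ± SE, coloured where called, open symbols are the 4 pairs of libraries, and dotted lines mark 0.5 in each direction. The estimates run from -1.60 (SLC25A29) to 1.07 (SLC25A25), and the 3 carriers that rose and 8 that fell are spread over 7 of the 9 role groups.

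Promoter sequence is shown for the carriers with the 2 largest rises and for SLC25A29 and UCP2, the 2 falls with the smallest adjusted p, so that the upstream DNA can be read beside their values. Sequences come from RefSeq on GRCh38.p14, which gave a window of 250 bases before a start for 35 of the 42 carriers (45 windows in all). Only the stretch outside every GENCODE 29 exon of the gene is printed, 5′ to 3′ on the gene's strand. Capitals mark the CCAAT box (CCAAT, or ATTGG on the other strand), an element bound by the factor NF-Y.
SLC25A28, 80 bases at chr10:99620610-99620689, minus strand: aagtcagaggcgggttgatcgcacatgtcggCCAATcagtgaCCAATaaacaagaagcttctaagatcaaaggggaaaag
SLC25A25, 219 bases at chr9:128067982-128068200, plus strand, before the first start of the gene: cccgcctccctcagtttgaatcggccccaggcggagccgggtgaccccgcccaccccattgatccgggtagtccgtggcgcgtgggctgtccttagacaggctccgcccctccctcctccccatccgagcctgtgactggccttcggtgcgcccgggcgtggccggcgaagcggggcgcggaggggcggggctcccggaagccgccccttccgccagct
SLC25A25, 250 bases at chr9:128091205-128091454, plus strand, before an internal start of the gene: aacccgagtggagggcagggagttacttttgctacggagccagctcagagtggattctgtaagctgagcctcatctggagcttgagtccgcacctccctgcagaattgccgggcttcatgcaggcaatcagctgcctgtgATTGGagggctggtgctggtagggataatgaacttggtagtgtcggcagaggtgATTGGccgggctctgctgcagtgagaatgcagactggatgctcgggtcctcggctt
SLC25A29, 147 bases at chr14:100306548-100306694, minus strand: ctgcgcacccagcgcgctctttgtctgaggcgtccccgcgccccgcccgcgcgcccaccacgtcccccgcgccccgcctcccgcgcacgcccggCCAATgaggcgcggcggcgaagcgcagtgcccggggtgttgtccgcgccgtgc
UCP2, 145 bases at chr11:73983308-73983452, minus strand: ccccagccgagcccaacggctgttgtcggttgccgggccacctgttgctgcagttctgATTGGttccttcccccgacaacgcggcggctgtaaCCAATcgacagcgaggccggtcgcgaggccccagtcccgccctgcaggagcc
The SLC25A28 and UCP2 stretches each hold 2 CCAAT boxes and that of SLC25A29 holds 1. Of the 2 SLC25A25 stretches, the one before the internal start holds 2 and the one before the first start holds none. Thus carriers that rose and carriers that fell both carry it. The box was found in 21 of the 45 carrier windows (46.7%) and in 32.0% of all 35115 windows of the same length. The interferon-related GAS letters TTCNNNGAA were found in 4 carrier windows (8.89%, against 6.57% of all windows) and in none of the 16 windows of called carriers. An ISRE-like pair of GAAA runs 2 bases apart was found in 1 carrier window (2.22%, against 3.02%), that of SLC25A22. The NRF1-like letters GCGCA and GCGC, 1 base apart, were found in 2 (4.44%, against 5.07%) and the E-box CACGTG in 7 (15.6%, against 6.34%). None of the 16 windows of called carriers held the E-box. Both strands were searched, no motif was masked where it overlapped another, and a match describes letters, not a bound site.

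The 3 carboxylate carriers were all lower in every cytokine library than in any control library, as were 21.9% of all genes. Of the 3 only SLC25A10 passed the fold threshold. SLC25A10 (ENSG00000183048, chromosome 17, 81712236 to 81721016, plus strand, GENCODE 29 on GRCh38), the dicarboxylate carrier, exchanges malate or succinate for phosphate. Control libraries held 3.36, 3.13, 2.83 and 3.52 CPM and cytokine libraries 1.72, 1.11, 1.47 and 1.39 CPM. It fell from 3.21 ± 0.30005 to 1.42 ± 0.253 CPM (SD, n = 4), by estimate to 0.457 of control (log2 fold change -1.13, SE 0.20, adjusted p = 0.00182, limma). Here and below, such factors come from the log2 fold change and differ from the ratio of the mean CPM. SLC25A1, the citrate carrier that delivers citrate to the cytosol for lipid synthesis, held 159, 159, 188 and 133 CPM in control and 120.3, 126, 118 and 99.4 CPM in cytokine libraries. SLC25A11, which exchanges oxoglutarate for malate in the malate-aspartate shuttle, held 33.1, 32.3, 37.3 and 29.02 CPM in control and 25.9, 23.1, 24.5 and 21.5 CPM in cytokine libraries. For both, the groups did not overlap (exact permutation test, 2-sided, p = 0.0286, the smallest that 4 against 4 libraries allow). Their log2 fold changes were -0.45 (SE 0.13, adjusted p = 0.0248) and -0.47 (SE 0.12, adjusted p = 0.0143, limma), below the fold threshold, so neither was called. Under TMM their adjusted p were 0.131 and 0.0733. SLC25A1 was called without control library D (adjusted p = 0.0162, limma), and SLC25A11 without control library D (0.0164) or cytokine library A (0.0249). GENCODE 29 lists 5 pseudogenes named for SLC25A1, and reads that align to several places were left out by the counting tool's default.

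Among the 7 amino acid carriers, SLC25A29 showed the largest fall of the family and SLC25A22 rose. SLC25A29 (ENSG00000197119, chromosome 14, 100291111 to 100306547, minus strand) transports basic amino acids such as arginine and lysine. It held 373, 349, 301 and 387 CPM in control and 113, 114, 104 and 133 CPM in cytokine libraries, so that the highest cytokine library lay below a control range whose lowest value was 301 CPM. Its mean fell from 353 ± 37.5 to 116 ± 12.3 CPM (SD, n = 4), to 0.329 of control (log2 fold change -1.60, SE 0.13, adjusted p = 5.56e-06, limma), and the log2 fold change was -1.67 in pairs A and B and -1.54 in pairs C and D.

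SLC25A22 (ENSG00000177542, chromosome 11, 790475 to 798333, minus strand) is a carrier that imports glutamate together with a proton. Control libraries held 189, 161, 125 and 109.5 CPM and cytokine libraries 242, 237, 214 and 169.7 CPM. Every cytokine library was higher than its own control, but cytokine library D lay below control library A, so the groups overlapped (exact permutation test, 2-sided, p = 0.0571). The mean rose from 146 ± 35.7 to 216 ± 33.2 CPM (SD, n = 4), by a factor of 1.498 (log2 fold change 0.58, SE 0.19, adjusted p = 0.0344, limma). Within pairs A and B the log2 fold change was 0.46, and within C and D it was 0.71. The call held with the pairs as a block (adjusted p = 4.68e-06, limma). It was lost without an intensity trend (0.0566), with CPM over nuclear genes (0.0657), and without control library C (0.0766), control library D (0.0943), cytokine library A (0.0923), cytokine library B (0.0869) or cytokine library C (0.0604).

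The aspartate/glutamate carriers, which export aspartate for the malate-aspartate shuttle and are stimulated by calcium, were not called. SLC25A12 (aralar) held 26.6, 28.7, 32.5 and 30.1 CPM in control and 21.5, 17.9, 21.4 and 22.9 CPM in cytokine libraries, with no overlap. The estimate (log2 fold change -0.49, SE 0.13, adjusted p = 0.0123, limma) was just short of the fold threshold, and SLC25A12 passed that threshold without control library A (0.0144) or B (0.0314) and without cytokine library A (0.0302), C (0.0208) or D (0.0188, adjusted p by limma). SLC25A13 (citrin) held 37.9, 35.4, 42.2 and 36.97 CPM in control and 43.2, 42.5, 42.5 and 41.4 CPM in cytokine libraries (log2 fold change 0.16, SE 0.10, adjusted p = 0.289, limma). Each SLC25A13 value was higher with cytokines within its pair, but the groups overlapped because of control library C. The other 3 amino acid carriers were not called. SLC25A38, which brings glycine into mitochondria for haem synthesis, had means of 21.9 and 27.6 CPM (control and cytokine, in this order here and below; log2 fold change 0.33, SE 0.14, adjusted p = 0.0975, limma), and was higher with cytokines in all 4 pairs. SLC25A44, a carrier of branched-chain amino acids, had means of 66.8 and 56.8 CPM (log2 fold change -0.23, SE 0.18, adjusted p = 0.376, limma). SLC25A15, the ornithine carrier of the urea cycle, had means of 3.495 and 2.95 CPM (log2 fold change -0.23, SE 0.23, adjusted p = 0.49, limma), and 5 pseudogenes of it are annotated.

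**Figure D2:**
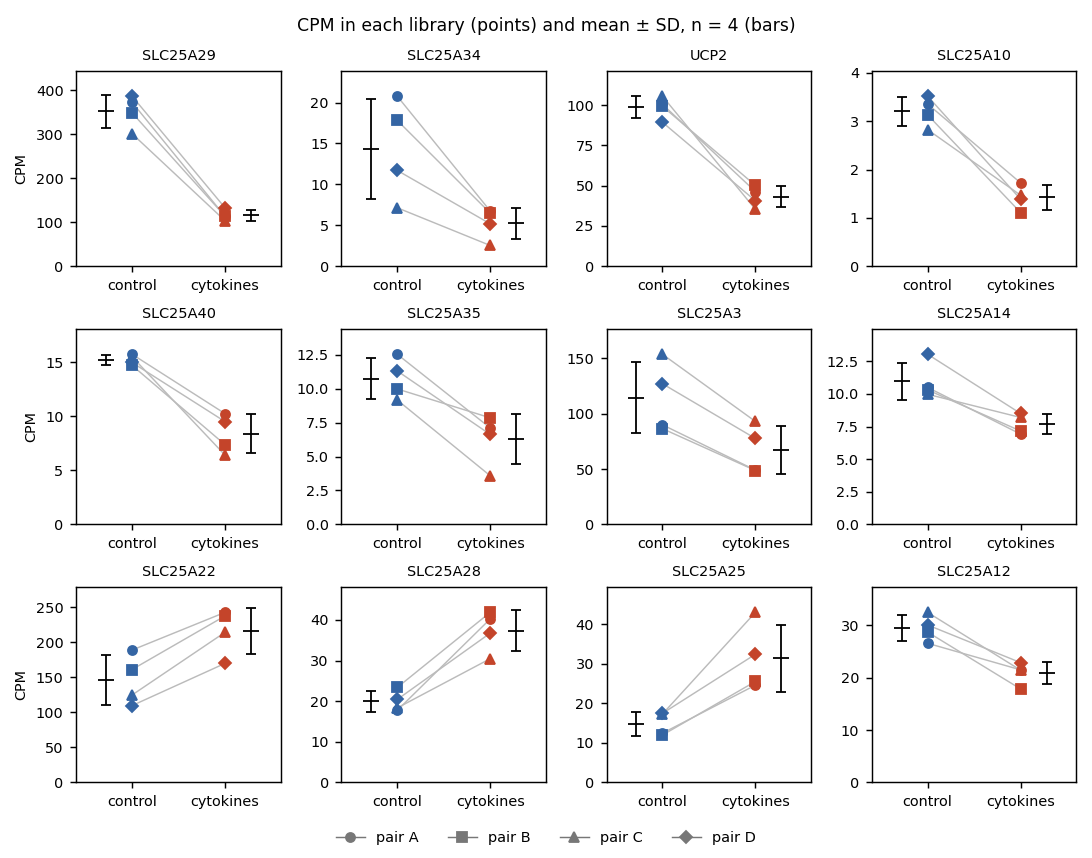
CPM (vertical axes, from 0) of the 11 called carriers and SLC25A12 in each control and cytokine library, with lines joining the libraries of a pair and black bars giving mean ± SD (n = 4). In SLC25A3 and SLC25A22 the groups overlap although all 4 pairs move the same way, and in the other 10 panels they do not overlap.

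The 8 carriers of adenine nucleotides and phosphate included 1 rise and 1 fall. SLC25A25 (ENSG00000148339, chromosome 9, 128068201 to 128109245, plus strand) belongs to the calcium-regulated carriers that exchange ATP-magnesium for phosphate and so set the matrix content of adenine nucleotides. It held 12.4, 11.96, 17.3 and 17.4 CPM in control and 24.6, 25.5, 42.96 and 32.4 CPM in cytokine libraries, with no overlap. The mean rose from 14.8 ± 2.99 to 31.4 ± 8.49 CPM (SD, n = 4), by a factor of 2.09 (log2 fold change 1.07, SE 0.20, adjusted p = 0.00282, limma). An antisense gene, SLC25A25-AS1, shares 665 exon bases with it on the opposite strand and was not called (means 37.2 and 27.4 CPM; log2 fold change -0.44, SE 0.35, adjusted p = 0.373, limma).

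SLC25A23, a paralog with the same exchange, held 229, 226, 163 and 129.8 CPM in control and 147, 148, 92.4 and 82.2 CPM in cytokine libraries. All 4 pairs were lower with cytokines, while C and D lay below A and B in both conditions, so the groups overlapped (exact permutation test, 2-sided, p = 0.114). SLC25A23 did not pass (log2 fold change -0.68, SE 0.24, adjusted p = 0.0537, limma). With the pairs as a block it did (adjusted p = 2.67e-07, limma, and 2.81e-06, edgeR). It also passed without control library D (0.0272), cytokine library A (0.0416) or cytokine library B (0.0398, adjusted p by limma). The remaining ATP-magnesium carriers were not called. SLC25A24 had means of 18.1 and 13.8 CPM (log2 fold change -0.38, SE 0.20, adjusted p = 0.179, limma), and SLC25A41, at 0.363 to 1.04 CPM over the 8 libraries, had means of 0.623 and 0.497 CPM (log2 fold change -0.23, SE 0.32, adjusted p = 0.622, limma).

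SLC25A3 (ENSG00000075415, chromosome 12, 98593591 to 98606379, plus strand) imports the phosphate that ATP synthase uses and also carries copper. Control libraries held 90.02, 86.5, 154 and 127 CPM and cytokine libraries 48.99, 48.7, 93.01 and 77.6 CPM. The pairs moved by similar amounts, but control libraries A and B lay below cytokine library C (exact permutation test, 2-sided, p = 0.0857). The mean fell from 114 ± 32.1 to 67.1 ± 21.98 CPM (SD, n = 4), to 0.5803 of control (log2 fold change -0.79, SE 0.25, adjusted p = 0.034, limma), with -0.85 in pairs A and B and -0.72 in pairs C and D. It was not called under TMM (log2 fold change -0.63, adjusted p = 0.0506, limma), nor without an intensity trend (0.0567), nor without control library C (0.0821), control library D (0.0854), cytokine library A (0.0944) or cytokine library B (0.0917). With the pairs as a block it was called (adjusted p = 9.75e-08, limma).

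The ADP/ATP translocases, which export the ATP made in the matrix, were not called. SLC25A6 (ANT3) held 263, 286, 414 and 323 CPM in control and 214, 208, 335 and 238 CPM in cytokine libraries (log2 fold change -0.37, SE 0.19, adjusted p = 0.156, limma). SLC25A5 (ANT2) held 91.5, 94.9, 166 and 131 CPM in control and 80.4, 83.4, 122 and 108 CPM in cytokine libraries (log2 fold change -0.27, SE 0.21, adjusted p = 0.353, limma). Both were lower with cytokines in all 4 pairs, but the groups overlapped, and SLC25A6 passed without cytokine library C (adjusted p = 0.0384, limma). SLC25A4 (ANT1) had means of 45.6 and 47.4 CPM (log2 fold change 0.04, SE 0.22, adjusted p = 0.914, limma). Of the summed TPM of the 3 genes (transcripts per 1e6 transcripts, a level per length), SLC25A4 took 4.102, 3.87, 4.01 and 3.82% in control and 4.86, 4.66, 5.59 and 5.202% in cytokine libraries. Its share was thus higher in every cytokine library than in any control library, which is a description and was not tested. GENCODE 29 lists 9 pseudogenes of SLC25A5 and 6 of SLC25A6, so their levels are uncertain.

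Within the uncoupling protein branch of the members, UCP2 and SLC25A14 fell. UCP3 was listed but is not a member by its symbol. It had means of 1.18 and 1.16 CPM and was not called (log2 fold change -0.05, SE 0.26, adjusted p = 0.905, limma). UCP2 (ENSG00000175567, chromosome 11, 73974667 to 73983307, minus strand) lowers the proton gradient under some conditions and exports C4 metabolites. Control libraries held 101, 99.4, 106 and 89.4 CPM and cytokine libraries 46.4, 50.2, 35.3 and 40.7 CPM, so the highest cytokine library was well below the lowest control library. The mean fell from 98.8 ± 6.78 to 43.1 ± 6.51 CPM (SD, n = 4), to 0.434 of control (log2 fold change -1.20, SE 0.13, adjusted p = 6.32e-05, limma), and the log2 fold change was -1.05 in pairs A and B and -1.36 in pairs C and D. SLC25A14 (UCP5; ENSG00000102078, chromosome X, 130339888 to 130373361, plus strand) held 10.5, 10.3, 9.97 and 13.04 CPM in control and 6.92, 7.15, 8.19 and 8.499 CPM in cytokine libraries, with no overlap. Its estimate lay at the fold threshold (log2 fold change -0.50, SE 0.15, adjusted p = 0.0263, limma). The call was lost under TMM (adjusted p = 0.0791, limma), with pseudocounts of 0.5 and 1, with edgeR and the replicate block (adjusted p = 0.0116, log2 fold change -0.35), and without control library D (0.0809), cytokine library A (0.0799) or cytokine library B (0.0718, limma). SLC25A27 (UCP4) had means of 31.5 and 29.3 CPM (log2 fold change -0.14, SE 0.29, adjusted p = 0.749, limma) and SLC25A30 (KMCP1) of 1.85 and 1.88 CPM (log2 fold change 0.04, SE 0.40, adjusted p = 0.953, limma), and neither was called.

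The mitoferrins bring iron into the matrix for haem and iron-sulfur clusters. SLC25A28 (mitoferrin 2; ENSG00000155287, chromosome 10, 99610522 to 99620609, minus strand) held 17.7, 23.4, 18.3 and 20.4 CPM in control and 40.2, 41.9, 30.5 and 36.7 CPM in cytokine libraries. No cytokine library came near the control range. The mean rose from 19.96 ± 2.55 to 37.3 ± 5.05 CPM (SD, n = 4), by a factor of 1.86 (log2 fold change 0.90, SE 0.14, adjusted p = 0.000872, limma). SLC25A37 (mitoferrin 1) had means of 46.8 and 36.8 CPM, was lower with cytokines in all 4 pairs and was not called (log2 fold change -0.38, SE 0.19, adjusted p = 0.156, limma).

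Of the glutathione importers, SLC25A40 fell and SLC25A39 was not called. SLC25A40 (ENSG00000075303, chromosome 7, 87833568 to 87876357, minus strand) held 15.7, 14.7, 15.5 and 14.98 CPM in control and 10.2, 7.37, 6.402 and 9.504 CPM in cytokine libraries. The control libraries lay close together and the cytokine libraries were more spread, and the groups did not overlap. Its mean fell from 15.2 ± 0.472 to 8.38 ± 1.79 CPM (SD, n = 4), to 0.544 of control (log2 fold change -0.88, SE 0.17, adjusted p = 0.0026, limma). SLC25A39, a close relative of higher level, held 190.3, 180.5, 169 and 147 CPM in control and 198, 198, 178 and 151 CPM in cytokine libraries (log2 fold change 0.08, SE 0.13, adjusted p = 0.704, limma). Each pair was slightly higher with cytokines, by less than the spread between libraries.

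Without the replicate block, none of the 9 carriers of cofactors and nucleotides was called by limma, edgeR or DESeq2 (1 had an unadjusted p below 0.05 in limma). Their median log2 fold change was 0.05. Of all genes, limma called 27.0% and edgeR 24.6%. SLC25A33, a carrier of pyrimidine nucleotides, held 7.21, 7.07, 12.6 and 10.5 CPM in control and 8.69, 9.91, 18.02 and 12.9 CPM in cytokine libraries, higher with cytokines in all 4 pairs (log2 fold change 0.39, SE 0.26, adjusted p = 0.286, limma). It passed with edgeR and the replicate block (log2 fold change 0.55, adjusted p = 0.00036). A further 7 had log2 fold changes from -0.05 to 0.29 and adjusted p of 0.303 or more (limma). They were SLC25A36 (pyrimidine nucleotides, means 38.6 and 37.7 CPM), SLC25A42 and SLC25A16 (both linked to coenzyme A, 34.5 and 37.4 CPM, and 10.2 and 9.96 CPM), SLC25A17 (a peroxisomal carrier, 13.9 and 14.3 CPM), SLC25A51 (NAD, 5.81 and 5.61 CPM), SLC25A26 (S-adenosylmethionine, 3.89 and 4.83 CPM) and SLC25A32 (folate and FAD, 1.3999 and 1.52 CPM). SLC25A20, which carries acylcarnitines for fatty acid oxidation, had means of 10.8 and 9.36 CPM (log2 fold change -0.20, SE 0.25, adjusted p = 0.594, limma).

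Of the 6 carriers whose substrate is not settled, SLC25A34 and SLC25A35 fell. SLC25A34 (ENSG00000162461, chromosome 1, 15736405 to 15741396, plus strand) held 20.8, 17.8, 7.15 and 11.7 CPM in control and 6.75, 6.49, 2.54 and 5.18 CPM in cytokine libraries. The control libraries spread widely, and the lowest of them, C, was just above the highest cytokine library, A. Within pairs the fall was similar, and the mean went from 14.4 ± 6.12 to 5.24 ± 1.93 CPM (SD, n = 4), to 0.374 of control (log2 fold change -1.42, SE 0.37, adjusted p = 0.0145, limma). SLC25A35 (ENSG00000125434, chromosome 17, 8287763 to 8295343, minus strand) held 12.6, 9.99, 9.18 and 11.3 CPM in control and 7.11, 7.86, 3.58 and 6.63 CPM in cytokine libraries, with no overlap (log2 fold change -0.81, SE 0.24, adjusted p = 0.0243, limma). Its call was lost under TMM (adjusted p = 0.0761, limma) and without control library A (0.0581) or D (0.0597), and it shares 1293 exon bases with RANGRF on the opposite strand, which was not called (means 9.63 and 11.9 CPM). The other 4 were not called. SLC25A46, an outer membrane protein of mitochondrial dynamics, had means of 31.4 and 26.5 CPM, SLC25A43 of 2.56 and 2.305 CPM, SLC25A45 of 10.6 and 13.2 CPM and SLC25A53 of 28.9 and 31.6 CPM. SLC25A45 passed without cytokine library C (adjusted p = 0.0464, limma).

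Levels of different carriers can be compared only per length, as TPM, which divides reads by the exon length of GENCODE 29. That length joins the exons of all annotated transcripts of a gene, expressed or not, so orders between genes depend on it. By mean TPM over the 8 libraries the order began with SLC25A6 (531 TPM), SLC25A5 (297), SLC25A1 (260.1), SLC25A39 (198), SLC25A22 (154) and SLC25A29 (123). This order pools both conditions and is not that of either one. SLC25A6 exceeded SLC25A5 in each library, but mean ± SD of SLC25A6 and SLC25A5, and of SLC25A5 and SLC25A1, overlapped in both conditions (SLC25A6 579 ± 189 TPM in control and 483 ± 155 TPM in cytokine libraries, SLC25A5 317 ± 129 TPM in control and 277 ± 85.1 TPM in cytokine libraries, SLC25A1 292 ± 59.5 TPM in control and 228 ± 16.9 TPM in cytokine libraries). In control cells SLC25A29 (181 ± 30.98 TPM in control and 64.8 ± 12.6 TPM in cytokine libraries, SD, n = 4) lay at the level of SLC25A39 (185 ± 13.2 TPM in control and 211 ± 10.7 TPM in cytokine libraries), and with cytokines far below it. SLC25A22 stood at 118 ± 14.3 TPM in control and 191 ± 14.5 TPM in cytokine libraries. Mean ± SD of SLC25A39 lay below that of SLC25A1 and above that of SLC25A22 in control cells and overlapped with both with cytokines. SLC25A22 lay below SLC25A29 in control cells and above it with cytokines, without overlap. SLC25A23 stood at 144 ± 19.5 TPM in control and 97.8 ± 18.3 TPM in cytokine libraries, and UCP2 at 117 ± 16.4 TPM in control and 54.7 ± 4.66 TPM in cytokine libraries. With cytokines SLC25A28 (43.5 ± 6.93 TPM in control and 87.5 ± 8.49 TPM in cytokine libraries) lay above UCP2, and in control cells below it. The lowest levels were those of SLC25A30 (1.14 TPM), SLC25A41 (1.33) and SLC25A32 (1.62), which did not differ beyond their spread. Summed over all 42 carriers, CPM was 2221 to 2450.3 in control and 1735 to 1908 in cytokine libraries, without overlap. The sum of their TPM was 2113 to 3138 and 1961 to 2630.1, with overlap, and was higher in C and D than in A and B in both conditions.

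**Figure D3:**
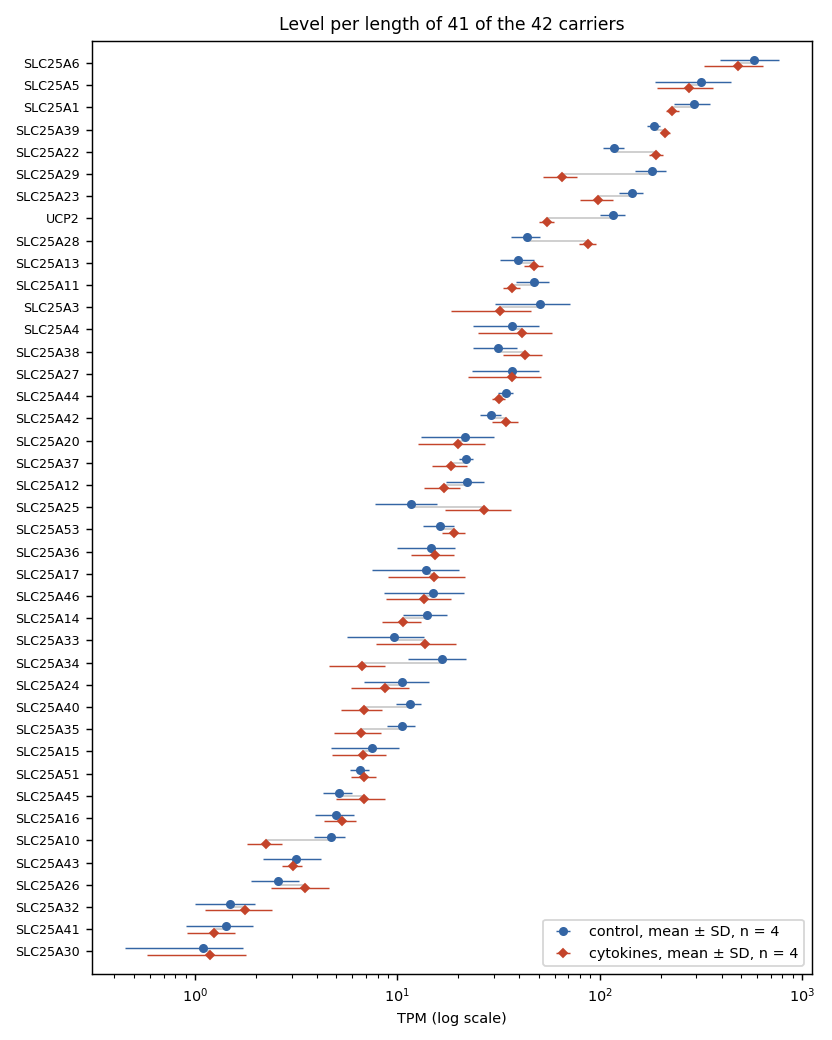
Level per length of 41 of the 42 carriers in TPM (horizontal log axis), mean ± SD over 4 control (circles) and 4 cytokine libraries (diamonds), ordered by the mean over all libraries. SLC25A6 is highest at 579 and 483 TPM in control and cytokine libraries and SLC25A30 lowest, and the widest gaps between conditions belong to called carriers such as SLC25A29.

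Ratios within a library do not depend on its total. They were taken for 4 pairs of related carriers, chosen with their fold changes known, and are given as a description without a test. The ratio of SLC25A13 to SLC25A12 in TPM was 1.99, 1.72, 1.81 and 1.71 in control and 2.796, 3.32, 2.76 and 2.52 in cytokine libraries, so citrin gained on aralar in every pair. The ratio of SLC25A28 to SLC25A37 was 1.55, 2.23, 2.101 and 2.0998 in control and 4.47, 4.33, 5.91 and 4.63 in cytokine libraries. In TPM mitoferrin 2 had the higher level of the 2 mitoferrins in all 8 libraries, by more with cytokines. This order rests on exon lengths of 1755 bases for SLC25A28 and 8147 bases for SLC25A37. In CPM the means of SLC25A28 and SLC25A37 were 19.96 and 46.8 in control and 37.3 and 36.8 in cytokine libraries. For SLC25A39 to SLC25A40 the ratio was 16.2 ± 1.66 in control and 32.4 ± 8.403 in cytokine libraries (SD, n = 4). For SLC25A25 to SLC25A23 it was 0.0533, 0.0521, 0.104 and 0.132 in control and 0.164, 0.1696, 0.458 and 0.387 in cytokine libraries. In this last ratio C and D stood above A and B in both conditions, and SLC25A25 remained the lower of the pair in every library.

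**Figure D4:**
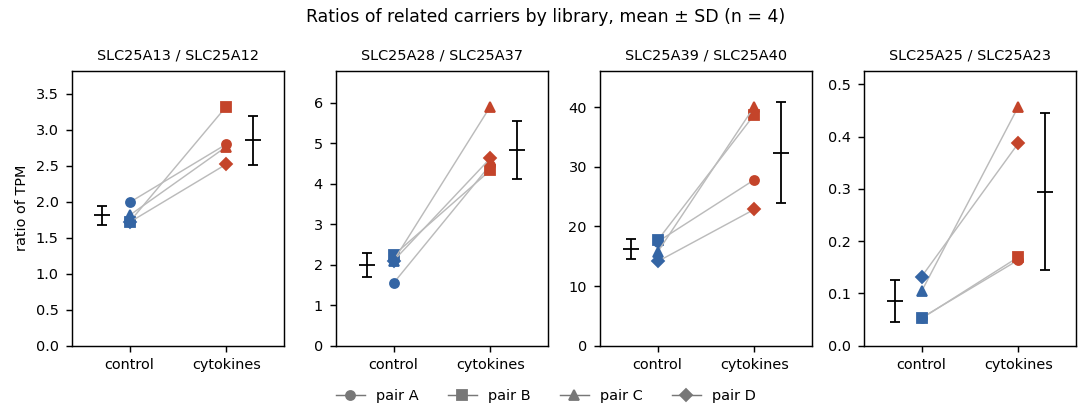
Ratio of TPM of 4 pairs of related carriers (vertical axes, from 0) in each control and cytokine library, with lines joining the libraries of a pair and black bars giving mean ± SD (n = 4). Every ratio is higher in all 4 cytokine libraries than in any control library, for example 1.996 ± 0.305 and 4.84 ± 0.727 for SLC25A28 over SLC25A37.

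Genes that import the carriers, work beside them or use their substrates were described in 8 lists of general knowledge. Of the 97 genes listed 94 were in the table, and 3 rose and 12 fell, which is 3.19% and 12.8% against 9.52% and 17.5% of all genes. None of the 15 listed genes of carrier import was called by limma (4 had an unadjusted p below 0.05), and the most abundant, TOMM20, an import receptor, had means of 112 and 106 CPM. None of the 18 ATP synthase genes was called either (2 at an unadjusted p below 0.05), and ATP5F1B, the catalytic subunit, had means of 259.6 and 247 CPM. Of 9 genes of mitochondrial mass and biogenesis none was called (1 at an unadjusted p below 0.05), and HSPA9, the matrix chaperone mortalin, had means of 125 and 142 CPM. TIMM10, a chaperone of carrier import, and HSPD1, the matrix chaperonin, were called higher under TMM (adjusted p = 0.0316 and 0.0112, limma), by edgeR with TMM, by DESeq2 and in both fits with the replicate block. TOMM5, a small subunit of the import pore, was called lower with the block in limma (adjusted p = 0.0127), and ATP5MG, of ATP synthase, with CPM over nuclear genes (0.0041). These 4 are named after their values were seen.

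Among other routes across the mitochondrial membranes, 1 of 17 genes rose and 2 fell (5.88% and 11.8%, against 9.52% and 17.5% of all genes). MPC1, a subunit of the pyruvate carrier, rose from 14.5 ± 6.48 to 30.7 ± 6.14 CPM (SD, n = 4) (log2 fold change 1.17, SE 0.29, adjusted p = 0.0116, limma), while its partner MPC2 had means of 46.5 and 46.3 CPM (log2 fold change 0.01, SE 0.16, adjusted p = 0.97, limma). SFXN2, of the sideroflexin family, fell from 16.7 to 7.69 CPM (log2 fold change -1.15, SE 0.24, adjusted p = 0.00419, limma), and VDAC3, an outer membrane channel, from 38.99 to 25.6 CPM (log2 fold change -0.59, SE 0.16, adjusted p = 0.0181, limma). The call of VDAC3 was lost under TMM (log2 fold change -0.44), by edgeR, DESeq2 and edgeR with the block, and without control library C (log2 fold change -0.48) or D (adjusted p = 0.0546) or cytokine library B (0.0540, limma). MTCH1, the most abundant gene of the list, had means of 178 and 169.6 CPM. In the calcium uniporter list, which holds SLC8B1 and LETM1 beside the uniporter genes, 2 of 9 genes rose and 1 fell (22.2% and 11.1%, against 9.52% and 17.5% of all genes). MCU, the pore, rose from 20.8 ± 2.298 to 41.9 ± 7.08 CPM (SD, n = 4) (log2 fold change 1.002, SE 0.15, adjusted p = 0.000598, limma). SLC8B1, the sodium/calcium exchanger, fell from 8.89 to 5.203 CPM (log2 fold change -0.76, SE 0.14, adjusted p = 0.00197, limma).

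The 7 NADH shuttle enzymes included 1 fall (14.3%, against 17.5% of all genes), and 4 had an unadjusted p below 0.05. By estimate 5 of the 7 were lower and 2 higher. None of the 4 enzymes of the malate-aspartate shuttle, which work beside SLC25A11, SLC25A12 and SLC25A13, was called. GOT1 (log2 fold change -0.39, adjusted p = 0.0489, limma) did not overlap between the groups but was below the fold threshold. GOT2 had a log2 fold change of -0.39 (adjusted p = 0.0518, limma). Both are named after their values were seen. GPD1, the cytosolic enzyme of the glycerol phosphate shuttle, which uses none of these carriers, fell from 41.2 ± 4.91 to 18.2 ± 1.44 CPM (SD, n = 4) (log2 fold change -1.17, SE 0.13, adjusted p = 5.91e-05, limma), while MDH2, the matrix malate dehydrogenase, had means of 157 and 187 CPM. In the list of citrate and malate metabolism outside mitochondria, which includes enzymes of fatty acid synthesis, 4 of 6 genes fell. That is 66.7%, against 17.5% of all genes, in a list chosen with earlier results known. These were FASN, the fatty acid synthase (1428 to 851 CPM, log2 fold change -0.75, SE 0.17, adjusted p = 0.00721, limma), ME1, the malic enzyme (2.63 to 1.33 CPM, log2 fold change -0.88, SE 0.29, adjusted p = 0.0409, limma), IDH1, an isocitrate dehydrogenase (57.1 to 32.1 CPM, log2 fold change -0.79, SE 0.21, adjusted p = 0.0146, limma), and ACACA, the acetyl-CoA carboxylase (133 to 93.2 CPM, log2 fold change -0.51, SE 0.11, adjusted p = 0.00591, limma). Under TMM 2 of the 4, IDH1 and FASN, remained called. ME1 passed in 2 and ACACA in 4 of the 8 fits that left out a library. ME1 was lost without control library B, C or D or cytokine library A, B or C (adjusted p 0.0548 to 0.105), and ACACA, without control library B or C or cytokine library C or D, went below the fold threshold (log2 fold change -0.49 to -0.47). Of 13 partners of iron, haem and glutathione carriers 4 fell (30.8%, against 17.5% of all genes) and none rose. Under TMM 3 fell (23.1%, against 11.7% of all genes). PPOX (-0.91), CPOX (-0.78) and FECH (-0.68) are enzymes of the last steps of haem synthesis, and NFS1 (-0.63) supplies sulfur for iron-sulfur clusters (log2 fold changes, adjusted p 0.00486 to 0.0133, limma). NFS1 was below the fold threshold under TMM (-0.48). GPX4, the glutathione peroxidase of membrane lipids, had means of 156 and 166 CPM. The medians of the lists ran from -0.63 (citrate and malate) to 0.07 (calcium uniporter), beside -0.17 for all genes.

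**Figure D5:**
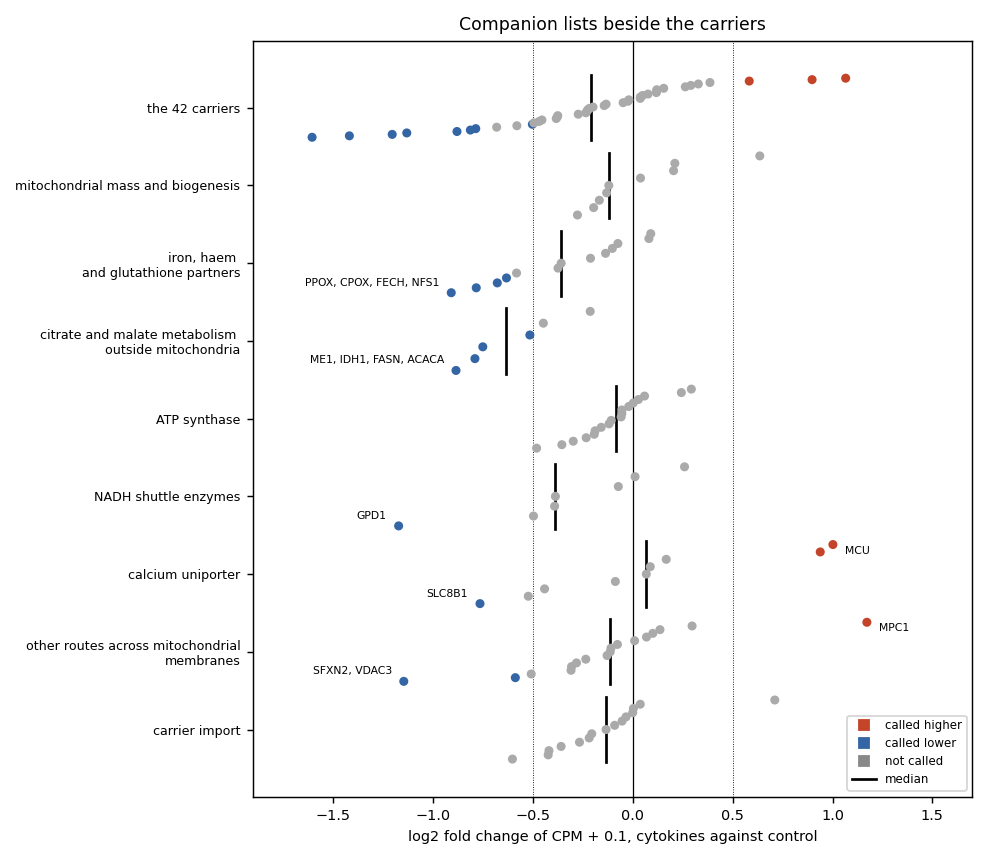
Log2 fold change of CPM + 0.1 (horizontal axis) of the genes of 8 companion lists and of the 42 carriers. Each point is a gene, coloured where called, black lines are medians, and dotted lines mark 0.5 in each direction. No gene is coloured in carrier import, ATP synthase, or mitochondrial mass and biogenesis, and the called genes that the text describes are named.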

How the data were processed

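RNA of 4 control and 4 cytokine-treated EndoC-βH5 cultures was measured by stranded RNA sequencing. According to the methods and the submitters' processing notes, the authors aligned reads to GRCh38 with TopHat 2.1.1, counted them on Ensembl release 107 genes with HTSeq 0.9.1 at default settings (which count by strand and leave out reads aligned to several places), removed genes that did not exceed 0.5 CPM in 4 or more samples and deposited CPM (counts per 1e6 reads of the library total). Another 4 columns of values were not used here. All values used were whole multiples of 1 read (tolerance 0.001), which gave the reads behind them (36577438 to 40117636 per library). Samples were grouped by their labels. The labels number the replicates but the columns do not, so pairs A to D rest on the start of the column names, and deviations from the group means correlated across genes by 0.46, 0.50, 0.75 and 0.68 within these pairs. Control A with cytokine library B gave 0.45 and control B with cytokine library A 0.49, so this check does not separate A from B.

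The members, their roles and the 8 companion lists were chosen with earlier results of these data known. Differential expression was tested on log2(CPM + 0.1) by limma (version 3.58.1, R 4.3.3) with a trend on intensity and no block, fitted to all 16525 genes and checked on simulated data. Fold changes, and the factors given with them, are on this scale, which understates those of low genes. Single members were also compared by exact permutation tests of 4 against 4 libraries. Alternatives were TMM and median-of-ratios scaling, pseudocounts of 0.5 and 1, a mean of at least 1 CPM, no trend, FDR alone, recovered reads with edgeR 4.0.16 and with DESeq2 1.42.0, the pairs as a replicate block, a term for the end of the column names and each library left out. CPM over nuclear genes, values within pairs A and B and within C and D, and the interaction were chosen after seeing the data. For TPM, exon lengths came from GENCODE 29. Values of every library are given for called members, members whose call changes under TMM or the block, the 6 of highest mean TPM, and UCP2, SLC25A1, SLC25A10, SLC25A11, SLC25A12, SLC25A13 and SLC25A22. Of each companion list the called genes and the one of highest mean CPM are named. A carrier and a companion gene that meet these rules are counted but not reported here.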

Additional observations from a re-analysis of the deposited data

Results flagged for a closer look

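In 2 of the 84 groups of 4 libraries examined (42 carriers in 2 conditions), a single library stood apart from the others of its condition by Dixon's test, and chance flags about 1 in 20 groups. SLC25A41, an ATP-magnesium carrier of very low level, held 1.04 CPM in control library B, where the next control library held 0.547 CPM. SLC25A53, a carrier without a settled substrate, held 25.7 CPM in cytokine library C, where the next cytokine library held 33.1 CPM. Neither carrier was called.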

How the results depend on the processing

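The 8 carriers SLC25A29, SLC25A34, UCP2, SLC25A10, SLC25A40, SLC25A28, SLC25A25 and SLC25A22 were called by limma, limma with TMM, edgeR, DESeq2 and both fits with the replicate block, and the first 7 of them in all 8 fits that left out a library. With TMM, median-of-ratios scaling and edgeR with TMM 5 carriers fell in place of 8, and with CPM over nuclear genes 12 (2 rose). With the pairs as a replicate block limma called 3 higher and 10 lower, and edgeR with TMM 4 higher and 8 lower. Without single libraries 2 to 3 carriers rose and 7 to 10 fell. Of the companion genes 5 rose in place of 3 under TMM, median-of-ratios scaling, edgeR, DESeq2, both block fits and the term for the column-name ending (3 to 5 without single libraries, 5 without control library C), and 7 fell in place of 12 under median-of-ratios scaling (9 to 18 without single libraries). Under TMM the 5 that rose were 5.32% of the companion genes found, against 13.0% of all genes. Over all 16525 genes, 1883 fell under median-of-ratios scaling, against 2896 by limma on CPM. The cause of the differences between settings was not tested. Reversals concerned carriers that were never called, with limma log2 fold changes from -0.23 (SLC25A41) to 0.12 (SLC25A32). Under TMM, median-of-ratios scaling, edgeR with TMM, DESeq2 and edgeR with the block, in this order, the log2 fold changes were 0.0095, 0.019, 0.041, 0.046 and 0.013 for SLC25A27, 0.014, 0.023, 0.012, 0.0198 and 0.012 for SLC25A43, 0.10, 0.11, 0.099, 0.11 and 0.10 for SLC25A51, 0.13, 0.14, 0.12, 0.13 and 0.13 for SLC25A16 and 0.13, 0.14, 0.13, 0.14 and 0.13 for SLC25A36. With CPM over nuclear genes they were -0.0198 for SLC25A30, -0.023 for SLC25A4 and -0.011 for SLC25A17. Without single libraries they ranged over -0.32 to 0.15 for SLC25A27, -0.24 to 0.011 for SLC25A43, -0.076 to 0.000147 for SLC25A51, -0.0900 to 0.043 for SLC25A16, -0.15 to 0.075 for SLC25A36, -0.18 to 0.32 for SLC25A30, -0.15 to 0.19 for SLC25A4, -0.11 to 0.23 for SLC25A17, -0.37 to 0.0064 for SLC25A41 and -0.097 to 0.28 for SLC25A32. SLC25A41 was the only carrier under a mean of 1 CPM, and the filter at that mean left the calls of the other 41 as they were. At 3 reads the depth limit lay below every value of a carrier.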
